A study of Sus scrofa with 4 samples.

Results

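The genes described here encode apolipoproteins, the protein parts of lipoprotein particles, and proteins that move lipid out of cells and between particles. They are APOA1, APOA2, APOB, APOC3, APOD, APOE, APOM, ABCA1, PLTP and LIPA. Members were taken as every non-control probe whose gene name in the array files equalled one of these 10 symbols. This gave 19 probes for 9 genes, of 43603 probes for 34853 gene names on the array, and no probe carried the name APOD, which was not analysed here.

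The study hybridised 4 pig arrays of long oligonucleotides, with 1 array for every condition. PIP is a line of preadipocytes derived from the longissimus thoracis muscle of a Duroc pig, used at passages 26 to 35 and here undifferentiated and unstimulated. pMA, porcine mature adipocytes, are the same line taken 4 days past confluence and then held for 4 days in a medium with insulin (50 ng/ml), dexamethasone (0.25 µM), octanoate (2 mM) and oleate (200 µM). The other two arrays hold pMA, with the same medium and fatty acids, stimulated for 12 h with serotonin at 100 µM (the sample labels write µM per ml) or with TNF-α at 2.5 µg/ml. The methods mention pooling the RNA of each group only where they describe a mouse array, so whether it was pooled here is not settled. Each condition has 1 array and all 4 lay on 1 slide, so no difference below has a replicate check and none carries a p-value. The unstimulated pMA array enters the comparison with PIP, with serotonin and with TNF-α, so these ratios are not independent of one another.

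Cells cannot break down the sterol ring, so surplus cholesterol leaves them on lipoproteins. In the best known route, acid lipase in lysosomes frees cholesterol from its esters, the transporter ABCA1 hands it with phospholipid to lipid-poor APOA1, and PLTP and lipases remodel the high density lipoprotein (HDL) that results. Liver and intestine make most circulating apolipoproteins, while adipocytes and macrophages are known for APOE and for ABCA1, a classical target of the liver X receptors (LXR), which sense oxysterols.

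The array reads each gene through 60-base probes, and their sequences decide which values are separate readings. Both APOA1 probes answer to the transcript NM_214398 and share 25 bases, shown in capitals, so they are overlapping readings of 1 stretch. All sequences run 5′ to 3′ as the array files give them.
APOA1 probe 1: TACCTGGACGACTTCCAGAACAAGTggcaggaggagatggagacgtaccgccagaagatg
APOA1 probe 2: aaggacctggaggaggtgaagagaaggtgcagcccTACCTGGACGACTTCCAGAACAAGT
The sole APOA2 probe and the brighter APOM probe each hold the polyadenylation hexamer AATAAA, in capitals, with 10 bases after it in APOA2 and 13 in APOM.
APOA2: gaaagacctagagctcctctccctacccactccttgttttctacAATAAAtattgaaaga
APOM probe 1: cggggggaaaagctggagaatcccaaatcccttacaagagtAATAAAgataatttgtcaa
Of all 60-base probes on the array, 9.6% hold AATAAA as printed and 4.17% hold its reverse complement TTTATT, and no other member probe holds either. The PLTP and APOE probes are shown because readings of each gene differed. PLTP probes 1 and 3 share the 19 bases in capitals, and probe 2 overlaps neither.
PLTP probe 1: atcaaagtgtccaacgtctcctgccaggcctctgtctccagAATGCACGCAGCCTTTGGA
PLTP probe 2: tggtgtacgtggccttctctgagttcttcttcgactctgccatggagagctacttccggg
PLTP probe 3: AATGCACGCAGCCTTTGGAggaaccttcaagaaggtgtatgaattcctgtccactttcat
One probe carries the name APOE. A further probe is described in the files as pig apolipoprotein E precursor but named after a transcript cluster, TC606910, so the rule does not count it among the members, and it was added after its values had been seen.
APOE: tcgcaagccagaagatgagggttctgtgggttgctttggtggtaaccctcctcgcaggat
APOE, cluster probe: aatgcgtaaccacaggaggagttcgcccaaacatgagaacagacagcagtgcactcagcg
The 3 ABCA1 and the 4 LIPA probes share no overlapping ends, so they are separate readings, of which the probe that represents ABCA1 is shown.
ABCA1 probe 1: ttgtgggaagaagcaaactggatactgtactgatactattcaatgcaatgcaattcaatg

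Values are given as the processed intensity of a spot, and ratios as log2 ratios after each array was divided by its 75th percentile of intensity, which was 515 in PIP, 479 in pMA, 566 after serotonin and 559 after TNF-α. A probe that the scanning software did not mark as well above background is called dim. Where 1 of a pair of arrays was dim, the ratio is a lower bound ("at least"), with the dim value raised, if lower, to the faintest intensity that its array still marked as well above background; where both were dim, or the brighter did not exceed that limit, none was formed. Probes spotted 5 times on each array put the technical error (SD) of a log2 ratio at 0.16, which is spot noise and holds nothing of the spread between cultures. It comes from repeated probes well above background. On a single array their SD was 0.1 to 0.13, and that of the fainter ones among them 0.15 to 0.18, so 0.16 is too small for faint probes. A gene stands by the probe that was brightest on average. Probes of different genes are not compared in level, except that marker levels are summed below. Of the 19 member probes, 13 were well above background on every array, 5 on some and 1 on none. Counted by array, 13 probes were well above background in PIP, 16 in pMA, 17 after serotonin and 18 after TNF-α, while the share of all probes was 56.5%, 56.5%, 60.9% and 66.0%.

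**Figure D1:**
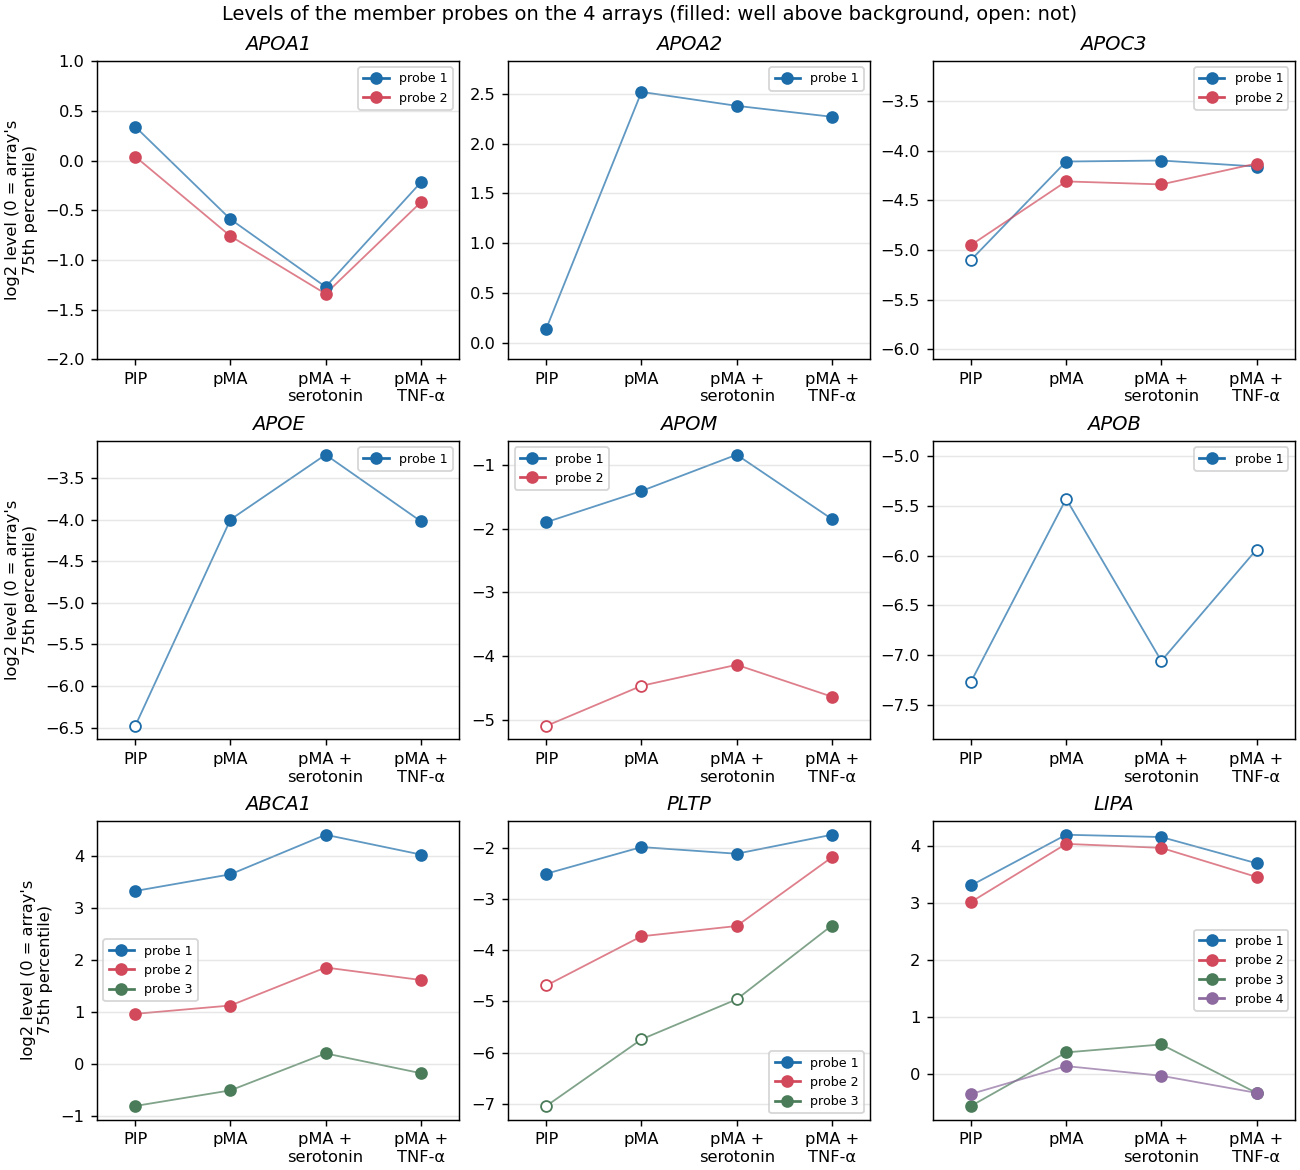
Log2 level of every member probe on the 4 arrays, where 0 is the 75th percentile of that array, with a separate vertical scale for each gene; filled points are well above background, open points are dim, and lines join the readings of 1 probe. APOA1 is lowest after serotonin, APOA2 is low only in PIP, ABCA1 is highest after serotonin on its 3 probes and LIPA is lower after TNF-α than in unstimulated pMA on its 4 probes.

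The cells were checked against markers of their labelled type. Among 9 adipocyte markers 7 were well above background on each array, and their summed level, in multiples of the 75th percentile, was 5.16 in PIP, 9.0 in pMA, 23.3 after serotonin and 15.2 after TNF-α. The lipid droplet protein PLIN1 was dim on all arrays and the adipokine ADIPOQ was dim on the 3 pMA arrays, while CD36, a fatty acid carrier, had a log2 ratio of 5.17 in pMA against PIP, with its 4 probes from 1.19 to 5.17. Other adipocyte markers did not all follow this sum: the fatty acid binding protein FABP4 exceeded its PIP level at least 8.48-fold in pMA but had a log2 ratio of -2.77 after serotonin, with its 4 probes from -3.13 to -2.21, and 1.45 after TNF-α, and the receptor PPARG stood at 1.07, -0.08 and 0.90 in the same comparisons. In the paper's RT-qPCR over 3 independent experiments, FABP4 was significantly lower after both stimulations. From its arrays the paper lists FABP4 as upregulated after both. After serotonin LPL stood at 2.41, CD36 at 1.47 and LIPE at 0.58. These were the brightest adipocyte markers on that array, at log2 levels of 3.41, 2.65 and 2.4, and such bright probes dominate the sum. Of 8 markers of hepatocytes, a cell type that makes many apolipoproteins, 4 had a probe, and they summed to between 0.187 and 0.325 over the arrays. ALB and HP were well above background on all 4 arrays, with ALB at a log2 level of -3.77 or below. Of 10 macrophage markers 6 had a probe, and their sum ran from 1.69 to 3.21. CD14, MRC1 and AIF1 were well above background on all 4 arrays, and CD163 and C1QA were dim throughout. For endothelial cells the sum ran from 0.483 to 1.59. PECAM1 and KDR were well above background on all 4 arrays, and CDH5 and TEK were dim throughout. Skeletal muscle markers summed to 643 in PIP, 658 in pMA, 175 after serotonin and 610 after TNF-α, nearly all of it from the brightest ACTA1 probe. The ACTA1 probes had log2 ratios from -1.52 to 0.87 in pMA against PIP and from -2.63 to -0.26 after serotonin. MYOG, DES and CKM were also well above background on all 4 arrays, and MYOD1 and MYH2 were dim throughout. Fibroblast and preadipocyte markers gave 74.6, 97.6, 57.7 and 71.0 in the same order. The part of these shifts in the members' ratios was not tested, and in RNA from whole cultures a smaller number of cells of a type and less RNA per cell cannot be told apart.

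Differentiation was followed by comparing pMA with PIP cells. The pMA medium held insulin, dexamethasone, octanoate and oleate, which PIP cells did not receive, and the days of PIP past confluence are not given. Effects of these differences cannot be told apart from differentiation here. APOA2 stood out, 5.21-fold higher in pMA, and APOE went from dim to measurable. APOA1, the main structural protein of HDL, was the single member lower in pMA. A ratio was obtained for 8 of the 9 genes, with APOB dim on both arrays. At least 2-fold higher were 2 of the 8, APOA2 and APOE, where 9.94% of 18633 gene names passed, and none was at least 2-fold lower, where 3.56% passed. The APOE value is a bound. It lay under 2-fold with scaling to the median, quantile normalization or the normexp background correction and past it with spike-in scaling, as given with the gene. The members' median log2 ratio was 0.70 and that of all gene names 0.12. Of the 8, 7 lay above 0, but scaling the arrays to their median put ABCA1 at -0.04 as it moved the median of all gene names to -0.22. Among the 7, the representing probes of APOC3 and APOE were dim in PIP, and a bound formed this way can only lie above 0. With only probes well above background on all 4 arrays, 1 of 6 genes was at least 2-fold higher, where 7.30% of gene names passed. The median of the 6 was then 0.50.

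APOA2, a further structural protein of HDL, read 568 in PIP, 2747 in pMA, 2945 after serotonin and 2697 after TNF-α. The 3 pMA arrays were all high and the PIP array low. Its log2 ratio of 2.38 in pMA against PIP has a spot error of 0.20 from the scanning software, and 0.596% of gene names had a higher one. Over the 9 other settings of scaling, background and filtering this ratio lay between 2.03 and 2.76. Against unstimulated pMA the log2 ratio was -0.14 after serotonin and -0.25 after TNF-α, sizes near the spot error.

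APOA1, which accepts lipid from ABCA1 and activates the esterifying enzyme LCAT, read 654 in PIP, 318 in pMA, 234 after serotonin and 479 after TNF-α for probe 1. Probe 2 gave 528, 282, 223 and 419. Both placed the arrays in 1 order, PIP highest, then TNF-α, then unstimulated pMA, with serotonin lowest. On probe 1 the log2 ratio was -0.93 in pMA against PIP, -0.68 after serotonin and 0.37 after TNF-α, and on probe 2 it was -0.80, -0.58 and 0.35, each with a spot error of 0.21. Serotonin against TNF-α gave -1.05 and -0.93, or 2.07-fold and 1.9-fold lower after serotonin, so the 2 probes lie on either side of 2-fold.

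APOC3, an inhibitor of lipoprotein lipase that slows the clearance of triglyceride, was close to the detection limit. Probe 1 read 15 (dim) in PIP, 27.7 in pMA, 33.0 after serotonin and 31.4 after TNF-α, and probe 2 read 16.7, 24.2, 27.9 and 32.0. Probe 1 was at least 1.99-fold higher in pMA than in PIP, with a spot error of 0.49 on the log2 scale. Probe 2, measured on both, was 1.57-fold higher with a spot error of 0.42. Between the 3 pMA arrays no log2 ratio of either probe exceeded 0.21 in size, which is within its spot error of 0.31 to 0.37. In the pig assembly Sscrofa11.1 APOC3 and APOA1 are next to each other on chromosome 9, followed on the APOC3 side by APOA4 and APOA5. The APOA5 probe had log2 ratios of 0.30 in pMA against PIP, -0.45 after serotonin and -0.15 after TNF-α, and APOA4 was dim except after TNF-α, so these neighbours did not share 1 direction in pMA against PIP.

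APOE, the ligand through which remnants bind receptors of the LDL receptor family, read 5.77 (dim) in PIP, 29.8 in pMA, 60.8 after serotonin and 34.4 after TNF-α where the probe carries its name. It was at least 2.18-fold higher in pMA than in PIP, a bound of 1.12 on the log2 scale. The bound became 0.77 with scaling to the median, 0.63 with quantile normalization and 0.40 with the normexp background correction, each under 2-fold. It became 1.5 with spike-in scaling and 1.15 with the deposited ratios, and with no filter on dim probes the ratio was 2.48, with a spot error of 0.87. A bound under 2-fold does not place the ratio itself under 2-fold. The log2 ratio of the named probe was 0.79 after serotonin and -0.02 after TNF-α, with spot errors of 0.30 and 0.32. Under the other settings the serotonin ratio lay between 0.06, with the normexp background correction, and 0.89. The cluster probe read 8.32 (dim), 46.7, 19.5 and 29.9 on the same arrays. It was at least 3.42-fold higher in pMA than in PIP, where the spot error before the dim value was raised was 0.67. However, its log2 ratio was -1.5 after serotonin, with a spot error of 0.38, and -0.87 after TNF-α, with 0.30. Both probes therefore read more in pMA than in PIP, and they moved in opposite directions after serotonin. Which of them reads the APOE transcript in these cells was not tested.

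APOM, which carries sphingosine-1-phosphate on HDL, read 138 in PIP, 180 in pMA, 317 after serotonin and 155 after TNF-α for probe 1. The serotonin array was the highest. Log2 ratios were 0.49 in pMA against PIP, 0.58 after serotonin and -0.44 after TNF-α (spot error 0.21). Probe 2 was far fainter, with 15.1 (dim), 21.5 (dim), 32.1 and 22.4, and it too was highest after serotonin, at least 1.26-fold above unstimulated pMA. That bound is 0.33 on the log2 scale, within its spot error of 0.47. Serotonin against TNF-α gave 1.02 on probe 1, 2.02-fold, and 0.50 on probe 2, 1.42-fold with a spot error of 0.36.

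APOB, the structural protein of very low and low density lipoproteins, was dim on all 4 arrays, with 3.33 in PIP, 11.1 in pMA, 4.23 after serotonin and 9.13 after TNF-α. A further 3 probes described as pig apolipoprotein B were also dim on every array. No ratio was formed, and at this signal a low level cannot be distinguished from none.

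**Figure D2:**
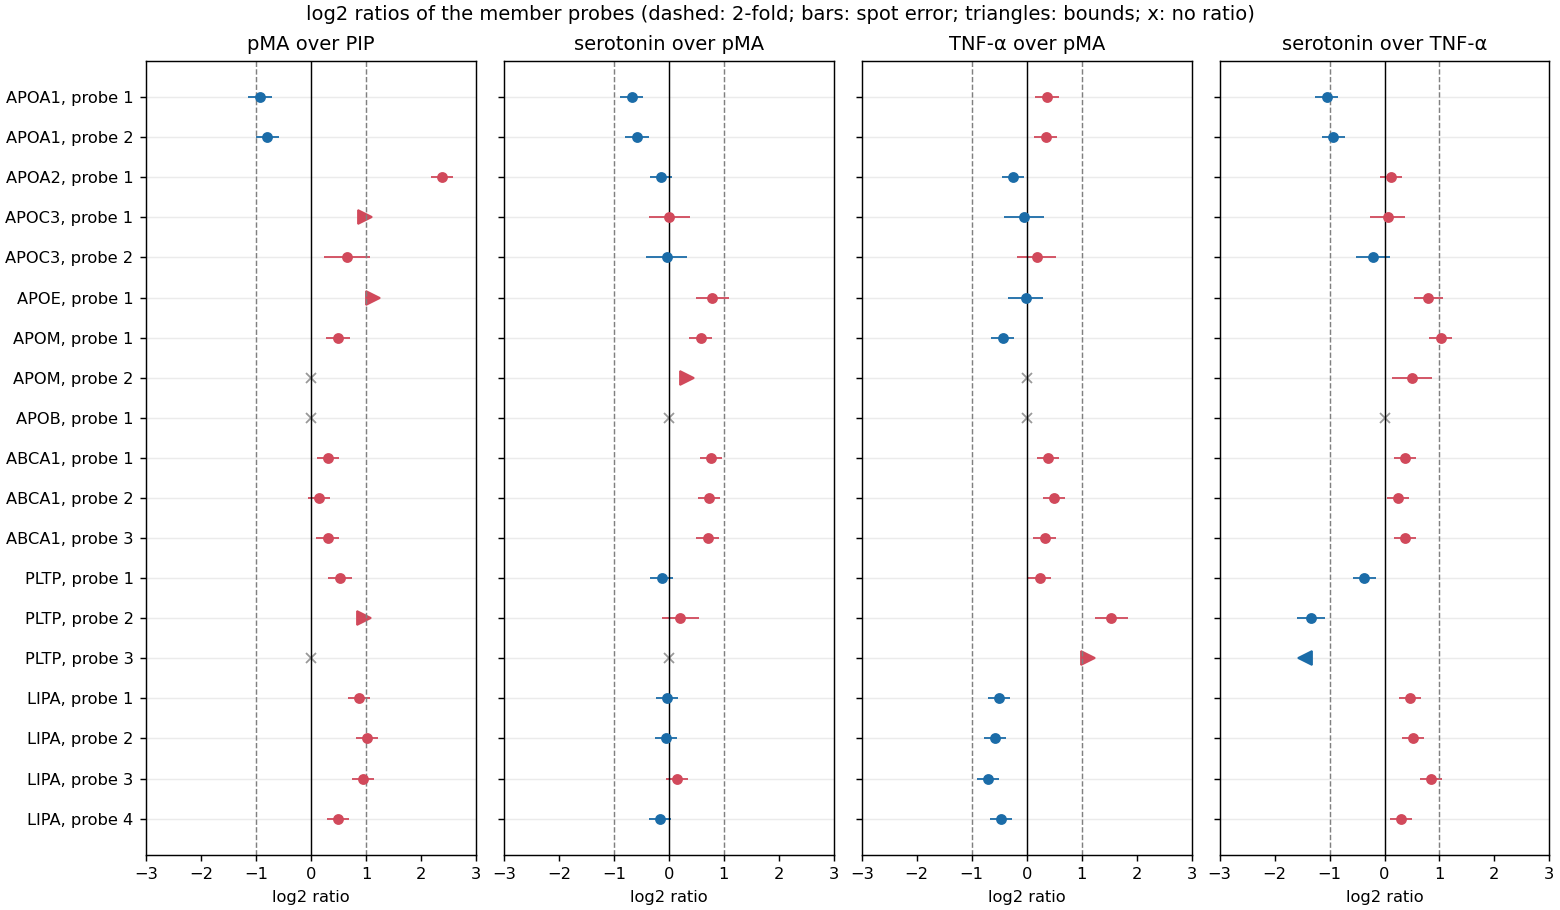
Log2 ratio of each member probe in the 4 comparisons, with the first-named condition over the other; bars are the spot error of the scanning software, triangles are bounds, crosses mark pairs that gave no ratio and dashed lines mark 2-fold. The ABCA1 probes lie between 0.71 and 0.76 after serotonin and the LIPA probes between -0.71 and -0.47 after TNF-α, whereas the PLTP probes spread from 0.24 to 1.54 after TNF-α.

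Among the genes of efflux and lipid transfer, ABCA1, the transporter that loads cholesterol and phospholipid onto APOA1, gave like readings on its 3 separate probes. Probe 1 read 5198 in PIP, 5997 in pMA, 12001 after serotonin and 9117 after TNF-α. Probe 2 read 1012, 1045, 2054 and 1717, and probe 3 read 296, 338, 653 and 497. Each of the 3 placed serotonin highest, TNF-α next, then unstimulated pMA and PIP. After serotonin the log2 ratios were 0.76, 0.73 and 0.71, that is 1.69-fold, 1.66-fold and 1.63-fold higher, with spot errors of 0.20 to 0.21. After TNF-α they were 0.38, 0.49 and 0.33. In pMA against PIP they were 0.31, 0.15 and 0.30, with spot errors of 0.20 to 0.21, and the direction of the first turned under scaling to the median as given above. A higher ratio than that of probe 1 after serotonin was found for 4.49% of gene names, and under the other settings it lay between 0.73 and 0.87.

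PLTP, the plasma protein that transfers phospholipid between particles and enlarges HDL, was read differently by its probes. Probe 1, the brightest, gave 90.4 in PIP, 121 in pMA, 130 after serotonin and 166 after TNF-α. Probe 2 gave 19.9 (dim), 36.0, 49.1 and 123, and probe 3 gave 3.91 (dim), 8.96 (dim), 18.1 (dim) and 48.8. TNF-α was the highest array on all 3 probes and PIP the lowest. The size differed: the ratio of TNF-α to unstimulated pMA was 1.18-fold on probe 1, with a log2 ratio of 0.24 and a spot error of 0.21, 2.92-fold on probe 2, with 1.54 and 0.30, and at least 2.17-fold on probe 3. Before the dim value of probe 3 was raised, the spot error of that ratio was 0.85. The brightest probe represents the gene in the counts, so PLTP counts as under 2-fold there, and with the median over probes in its place the log2 ratio was 1.12. Against TNF-α the serotonin array was 1.29-fold lower on probe 1, 2.53-fold on probe 2 and at least 2.72-fold on probe 3. After serotonin against unstimulated pMA the log2 ratio was -0.13 on probe 1 and 0.21 on probe 2, so no direction was common to them.

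**Figure D3:**
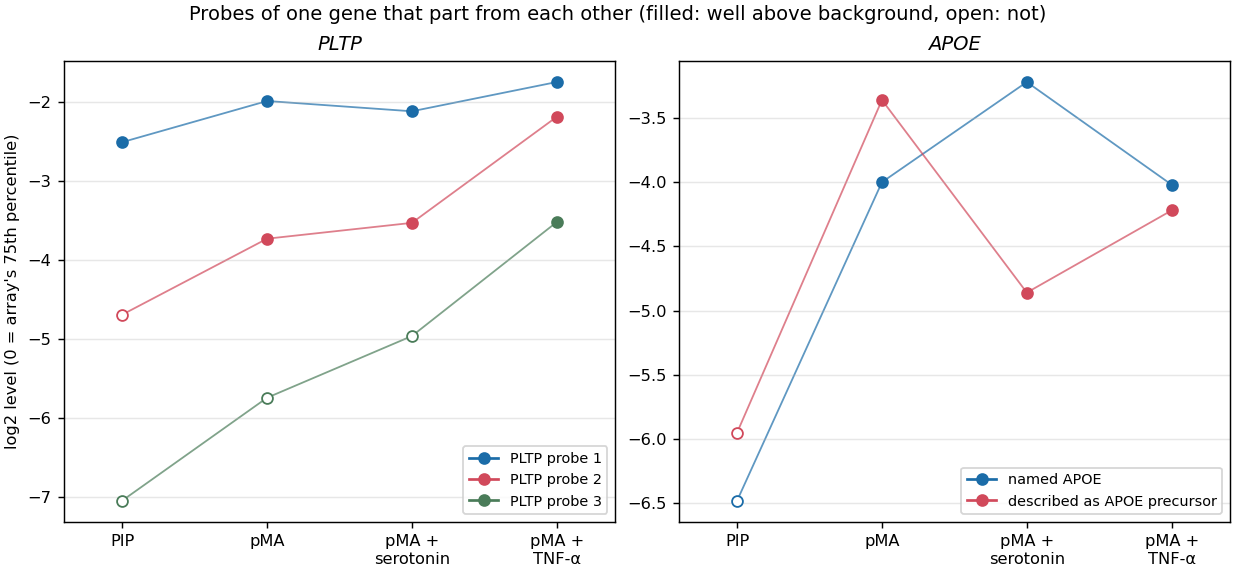
Log2 level, where 0 is the 75th percentile of the array, of the 3 PLTP probes (left) and of the probe named APOE and the probe described as its precursor (right) on the 4 arrays; filled points are well above background and open points are dim. After TNF-α the PLTP probes differ from unstimulated pMA by 0.24, 1.54 and at least 1.12, and after serotonin the APOE readings go to 0.79 above and 1.5 below unstimulated pMA.

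LIPA encodes lysosomal acid lipase, which splits cholesteryl esters and triglycerides taken up by the cell. Probe 1 read 5125 in PIP, 8766 in pMA, 10082 after serotonin and 7245 after TNF-α. On probe 2 the values were 4178, 7848, 8879 and 6160, on probe 3 they were 349, 623, 811 and 446, and on probe 4 they were 404, 528, 555 and 445. After scaling, unstimulated and serotonin-stimulated pMA were the highest pair on every probe. The log2 ratios of pMA to PIP were 0.88, 1.02, 0.94 and 0.49, with probe 2 just past 2-fold at 2.02, and after TNF-α they were -0.50, -0.57, -0.71 and -0.47, with spot errors of 0.20. After serotonin they were -0.04, -0.06, 0.14 and -0.17, all within the spot error. The 4 probes thus kept 1 direction in pMA against PIP and after TNF-α, and gave no common direction after serotonin. Of all gene names, 7.04% had a lower ratio than probe 1 after TNF-α.

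By their brightest probes, no member gene passed 2-fold after either stimulation, while PLTP probes 2 and 3 did after TNF-α. With serotonin against unstimulated pMA, none of the 8 genes with a ratio was at least 2-fold higher, where 2.08% of 19095 gene names passed, and none was at least 2-fold lower, where 4.73% passed. Of these 8, 4 lay above 0 and 4 below, from -0.68 in APOA1 to 0.79 in APOE, with a median of -0.01 beside 0.01 for all gene names. With TNF-α against unstimulated pMA none of 8 passed in either direction, where 2.21% of 19782 gene names were at least 2-fold higher and 1.34% at least 2-fold lower. There 3 lay above 0 and 5 below, from -0.50 in LIPA to 0.38 in ABCA1, with a median of -0.03 beside 0.01.

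Serotonin and TNF-α were also set against each other directly, without the unstimulated array. APOM was 2.02-fold higher and APOA1 2.07-fold lower after serotonin, 1 gene of 8 in each direction, where 1.83% of 21862 gene names were at least 2-fold higher and 5.07% at least 2-fold lower. Both values lay at the 2-fold limit, and the less bright probe of each gene was under it. The named APOE probe had a log2 ratio of 0.80 and the cluster probe of -0.63, again in opposite directions. LIPA stood at 0.46 and ABCA1 at 0.38, while PLTP was at -0.37 on its brightest probe. The median of the 8 genes was 0.24 and that of all gene names -0.04.

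**Figure D4:**
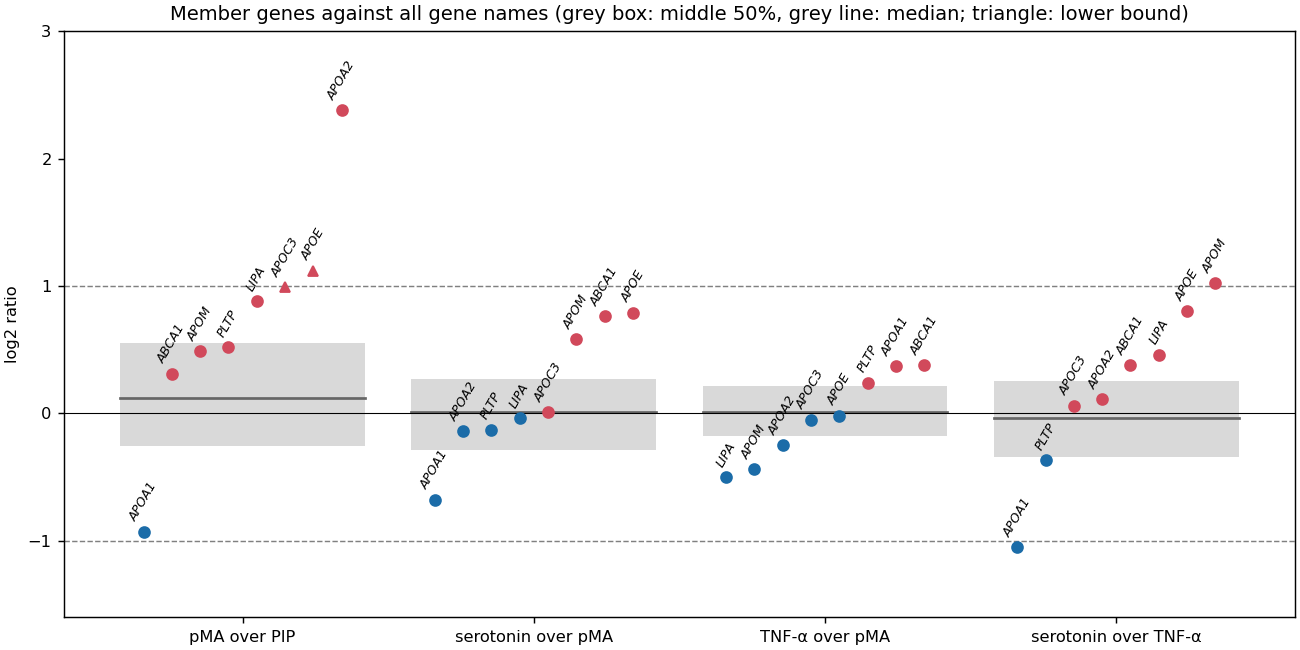
Log2 ratio of the 8 member genes with a ratio, each by its representing probe, in the 4 comparisons; the grey box spans the middle 50% of all gene names with a ratio, the grey line is their median, triangles are lower bounds and dashed lines mark 2-fold. APOA2 stands at 2.38 in pMA against PIP, and after either stimulation all 8 genes lie between the dashed lines when set against unstimulated pMA.

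The rest of the pathway was read through 7 gene lists. Of 15 other apolipoproteins 3 had a probe, and CLU, a secreted chaperone also found on HDL, was at least 2-fold higher in pMA than in PIP with a log2 ratio of 2.43. CLU stood at -0.93 after serotonin and 0.13 after TNF-α, and was at least 2-fold lower after serotonin than after TNF-α, at -1.06. Of 15 sterol and phospholipid exporters 5 had a probe and 3 a ratio, and ABCB4, a phosphatidylcholine exporter, was at least 2-fold higher after serotonin, at 1.07. Its log2 ratio of serotonin to TNF-α was 0.98 on the brighter of 2 probes and -0.97 on the other.

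Of 8 LXR receptors and their classical targets outside the members 6 had a ratio in each comparison. MYLIP, the ligase that marks LDL receptors for degradation, stood at -1.43 after TNF-α and 1.25 in serotonin against TNF-α. The median of the 6 was 0.10 in pMA against PIP, -0.10 after serotonin and -0.30 after TNF-α, and the receptor genes NR1H3 and NR1H2 stood at 0.42 and -0.02 after serotonin.

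Of 9 genes of HDL remodelling in plasma 7 had a probe, and LPL, the lipase that hydrolyses triglyceride in circulating particles, was the one to pass 2-fold. Its log2 level was 0.63 in PIP, 1.00 in pMA, 3.41 after serotonin and 2.28 after TNF-α. That gave log2 ratios of 2.41 after serotonin, with its 5 probes from 2.41 to 2.74, of 1.28 after TNF-α, with probes from 0.96 to 1.28, and of 1.13 in serotonin against TNF-α. Among lipoprotein receptors 6 of 9 had a ratio, and VLDLR, a receptor for APOE-bearing particles, was lower after serotonin, at -1.02 against unstimulated pMA, with 3 probes from -1.07 to -1.02, and at -1.11 against TNF-α. None of the 10 measured genes of lysosomal and intracellular cholesterol handling, of 15 listed, passed 2-fold in any comparison, nor did the 2 genes of apolipoprotein B assembly with a probe, of 4 listed. Of all gene names, between 1.34% and 9.94% passed in a given comparison and direction, so for lists this short such a result says little. The medians of the 7 lists ran from -0.29 to 1.36 in pMA against PIP, between -0.69 and 0.19 after serotonin, between -0.30 and 0.20 after TNF-α, and between -0.39 and 0.20 in serotonin against TNF-α, beside 0.12, 0.01, 0.01 and -0.04 for all gene names. Of these extremes, -0.29 rests on 1 gene with a ratio, and 1.36, -0.69 and 0.19 on 2 genes each.

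Genes whose profile over the 4 arrays came closest to a member were sought for APOA2 and APOA1, the members with the widest range among those measured on every array. Likeness was the Euclidean distance between log2 levels after each gene was centred on its own mean, over 4627 gene symbols well above background on every array. TMEM86A (0.17), CLDN15 (0.18) and KDM6A (0.27) were nearest to APOA2, and all 3 shared its low PIP array. Nearest to APOA1 were GM2A (0.11), IL7 (0.13) and GLRX (0.15), with PIP highest and serotonin lowest. Each profile rests on 4 arrays, and the distances are a description.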

How the data were processed

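The authors deposited the Feature Extraction 10.7.3.1 output of each array, from which processed spot intensity (1-color Cy3, background-corrected by the software) was used, and a table of ratio values, which proved to be that deposited intensity divided by 1 constant per array, close to the 75th percentile of all its spots. The study's methods also name a mouse array and a 2-color protocol; the files hold neither. Control spots and spots marked as outliers (1 to 12 per array) were left out, spots of a probe were averaged, and log2 intensities were set relative to each array's 75th percentile (Python 3.11.15, pandas 2.3.3). No spot was saturated. The 2-fold cutoff is that of the methods, whose test needs replicates. All 10 members, pathway genes past 2-fold (at most 4 per list and comparison) and 3 profile neighbours of 2 members were named by rule, except that 1 item is not reported here. Other genes, among them APOA4, APOA5, CD36, FABP4, PPARG, LIPE, ALB, NR1H2 and NR1H3, and the APOE cluster probe were named after their values were seen. Members and lists were chosen with earlier results of these data known. The number of arrays limits the precision. Alternatives were median, quantile and spike-in scaling, normexp background (limma 3.58.1, offset 50), the deposited ratios, other filters, other cutoffs and the median over probes. The calculation was tested on simulated data.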

Additional observations from a re-analysis of the deposited data

How the results depend on the processing

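Of 32 member ratios, 25 kept their sign under all alternatives tried for them, and 7 changed sign under at least 1: ABCA1 in pMA against PIP, APOC3, PLTP and LIPA after serotonin, APOC3 and APOE after TNF-α, and APOC3 in serotonin against TNF-α. Among the 25 are APOC3 and APOE in pMA against PIP, which are bounds that by construction lie above 0. Of the 4 ratios of at least 2-fold, 1, APOA2 in pMA against PIP, stayed past 2-fold in every alternative. The count of genes at least 2-fold higher in pMA against PIP, 2, became 1 with scaling to the median, quantile normalization, normexp background, probes well above background on all arrays or a 4-fold cutoff, 3 with the deposited ratios (APOC3 joined) or with no filter on dim probes (APOB joined), and 4 with spike-in scaling or a 1.5-fold cutoff. APOE was the gene lost in each alternative that gave 1. The count at least 2-fold lower, 0, became 1 with scaling to the median (APOA1) or a 1.5-fold cutoff. The median log2 ratio of 0.70 became 0.35 with scaling to the median, 0.47 with quantile normalization, 1.08 with spike-in scaling, 0.35 with normexp background, 0.88 with no filter on dim probes and 0.50 with probes well above background on all arrays. After serotonin the counts of 0 became 2 higher and 1 lower at 1.5-fold, and 1 lower with no filter. The shares of all gene names at the 1.5-fold and 4-fold cutoffs are not given here, so counts at those cutoffs have no such comparison. After TNF-α the count of 0 higher became 1 with the median over probes (PLTP), where 2.17% of gene names passed. In serotonin against TNF-α the 1 gene higher became 0 with normexp background, the median over probes or a 4-fold cutoff and 2 at 1.5-fold, and the 1 gene lower became 0 with scaling to the median, normexp background or a 4-fold cutoff and 2 with no filter. Apart from the changes that a cutoff or filter makes by its construction, the cause was not tested.

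Scaling moved all gene names together. Their median in pMA against PIP went from 0.12 to -0.22 with scaling to the median and to 0.52 with spike-in scaling. There the shares at least 2-fold higher and lower, 9.94% and 3.56%, became 4.50% and 8.68% with scaling to the median, 5.59% and 4.63% with quantile normalization and 22.4% and 1.69% with spike-in scaling. After serotonin, 2.08% and 4.73% became 2.91% and 3.63% with spike-in scaling. After TNF-α, 2.21% and 1.34% became 1.89% and 1.87% with scaling to the median, 2.23% and 2.29% with quantile normalization and 2.51% and 0.98% with spike-in scaling. In serotonin against TNF-α, 1.83% and 5.07% became 2.68% and 3.96% with scaling to the median, whose median of all gene names was 0.08 in place of -0.04, and 2.98% and 4.57% with quantile normalization. The background and filter alternatives moved these shares too: in pMA against PIP 2.52% of gene names were higher with normexp background, 16.7% with no filter and 7.30% with probes well above background on all arrays; after serotonin 7.46% were lower with no filter; in serotonin against TNF-α 0.719% were higher and 2.46% lower with normexp background and 9.22% lower with no filter. No paired analysis was possible because each condition has 1 array. Signal near background limits APOB, APOC3, APOE, PLTP probes 2 and 3 and APOM probe 2.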
